A study of Mus musculus with 6 samples.

Results

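The genes of the DOCK, RhoGEF, RhoGAP and myosin families were followed in RAW264.7, a mouse macrophage cell line, after exposure to drug-loaded nanoparticles. The members were the rows whose symbol began with Dock, Arhgef, Arhgap or Myo followed by a digit, and there were 96 of them among the 22614 rows of the deposited table: 11 Dock, 25 Arhgef, 35 Arhgap and 25 Myo rows. One of them, Arhgap33os, is an antisense RNA and not a RhoGAP gene. The treated group was 3 libraries from cells given CM-PEG-PLGA@DOX/R848 nanoparticles in an amount carrying 2 µg/mL DOX. The comparison group was 3 libraries from cells given phosphate buffered saline (PBS), and both groups were collected after 24 h. DOX is doxorubicin, a DNA-damaging drug, R848 is resiquimod, an agonist of endosomal Toll-like receptors, and the polymers PLGA and PEG form the carrier. What CM stands for is not spelled out. Since no library received DOX, R848 or the carrier on its own, their parts in any difference cannot be told apart. All 6 libraries come from a single cell line, and separate cultures are not stated, so the p-values measure the spread between these libraries, which may be technical.

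Small GTPases such as RhoA, Rac and Cdc42 switch between an active GTP-bound form and an inactive GDP-bound form, and in macrophages they direct the actin cytoskeleton during migration, spreading and engulfment. Guanine nucleotide exchange factors (GEFs) load them with GTP. The DOCK proteins are GEFs for Rac and Cdc42, and the Arhgef genes encode GEFs of the Dbl type. GTPase-activating proteins (GAPs), here the Arhgap genes, return the switch to its inactive form. Myosins are motors that walk on or tether actin. The unconventional myosins of the Myo genes link membranes, vesicles and organelles to actin filaments.

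Values were read as FPKM, fragments scaled to transcript length and to the size of the library, a unit that the deposited header does not name. On that reading, levels can be set side by side across genes. Between 16133 and 16407 rows were above 0 in the nanoparticle libraries, and between 13019 and 13237 in the PBS libraries. The first principal component held 93.85% of the variance and separated the groups. All 10 macrophage markers on the list reached 1 FPKM, and no marker of T cells, B cells, fibroblasts, epithelium, endothelium, muscle or neutrophils did in any library. The summed macrophage markers lay between 1607 and 1677 FPKM with nanoparticles and between 3466 and 3600 FPKM with PBS, with 3 markers higher, 6 lower and Spi1 not past the threshold. Csf1r averaged 49.1 FPKM with nanoparticles and 296 FPKM with PBS, and Adgre1 averaged 12.4 FPKM with nanoparticles and 1.77 FPKM with PBS. These markers moved in the same samples as the members below, and their part in the results was not tested. In bulk RNA, fewer cells of a type and less RNA per cell cannot be told apart.

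Most tested members were lower in nanoparticle-treated cells. Of the 96 members, 58 had a mean of at least 1 FPKM over the 6 libraries and entered a limma fit over all 10229 genes that passed the same filter, on log2(FPKM + 1). Fold changes below are nanoparticle over PBS on that scale, where low genes show less than their full ratio, and the threshold was a Benjamini-Hochberg adjusted p under 0.05. Of the 58 members, 36 were lower, 13 were higher and 9 did not pass the threshold. Over all genes tested, 34.5% were lower and 42.7% were higher, so 77.2% of all genes were called in one direction or the other and a call on its own is common here. These shares depended on scaling: 4366 genes were higher and 3530 lower as deposited, 3735 and 4163 after upper quartile scaling, and 3942 and 3947 after median-ratio scaling. The median log2 fold change of the tested members was -0.37, beside 0.08 over all genes tested. With a pseudocount of 10 these medians were -0.18 and 0.04, and with no filter, where members near 0 FPKM entered, they were 0.01 and 0.04. Among members, 7 were called with a log2 fold change of -1 or lower, where 6.29% of all genes were, and 2 were called at 1 or higher, where 11.4% of all genes were. The groups did not overlap for 49 of the 58 members, 36 with lower and 13 with higher values under nanoparticles, and for 78.8% of all genes tested. A total of 5 tested members, Dock1, Dock9, Arhgap15, Arhgap26 and Arhgap33, averaged under 1 FPKM with nanoparticles, so they passed the filter through their PBS values. Each mean therefore had to be lower with nanoparticles, and all but Dock9 are among the 36 called lower.

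The 4 families differed in how far their summed level moved. Summed over all its members, the Dock family stood at 45.2, 46.3 and 54.5 FPKM with nanoparticles, against 89.00, 80.4 and 94.4 FPKM with PBS. The Myo family stood at 125, 122 and 131 FPKM with nanoparticles, against 215, 206 and 217 FPKM with PBS. Both sums were lower in every nanoparticle library than in every PBS library, by 44.7% for Dock and 40.7% for Myo at the group means. The Dock sum averaged 48.6 ± 5.08 FPKM with nanoparticles and 87.9 ± 7.04 FPKM with PBS (SD, n = 3 each), and the Myo sum averaged 126 ± 4.46 FPKM with nanoparticles and 213 ± 5.70 FPKM with PBS (SD, n = 3 each). The Arhgef sum, at 223, 209 and 223 FPKM with nanoparticles, against 305, 287 and 306 FPKM with PBS, was 27.03% lower and also without overlap. The Arhgap sum, at 298, 301 and 305 FPKM with nanoparticles, against 315, 302 and 318 FPKM with PBS, was 3.38% lower at the means and the groups overlapped as deposited. After upper quartile scaling the Arhgap sum ran from 285 to 295 FPKM with nanoparticles and from 314 to 333 FPKM with PBS, 11.1% lower at the means without overlap, and after median-ratio scaling it was 8.52% lower, also without overlap. By count, 8 of 10 tested Dock genes, 8 of 14 Arhgef genes, 11 of 22 Arhgap genes and 9 of 12 Myo genes were lower. Those higher numbered 1 Dock gene, 4 Arhgef genes, 7 Arhgap genes and 1 Myo gene. Of all genes tested, 34.5% were lower and 42.7% higher as deposited. Of all tested genes with an annotated span over 100 kb, 54.8% were lower and 18.9% higher. Family medians of the log2 fold change were -0.57 for Dock, -0.33 for Arhgef, -0.22 for Arhgap and -0.67 for Myo.

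**Figure D1:**
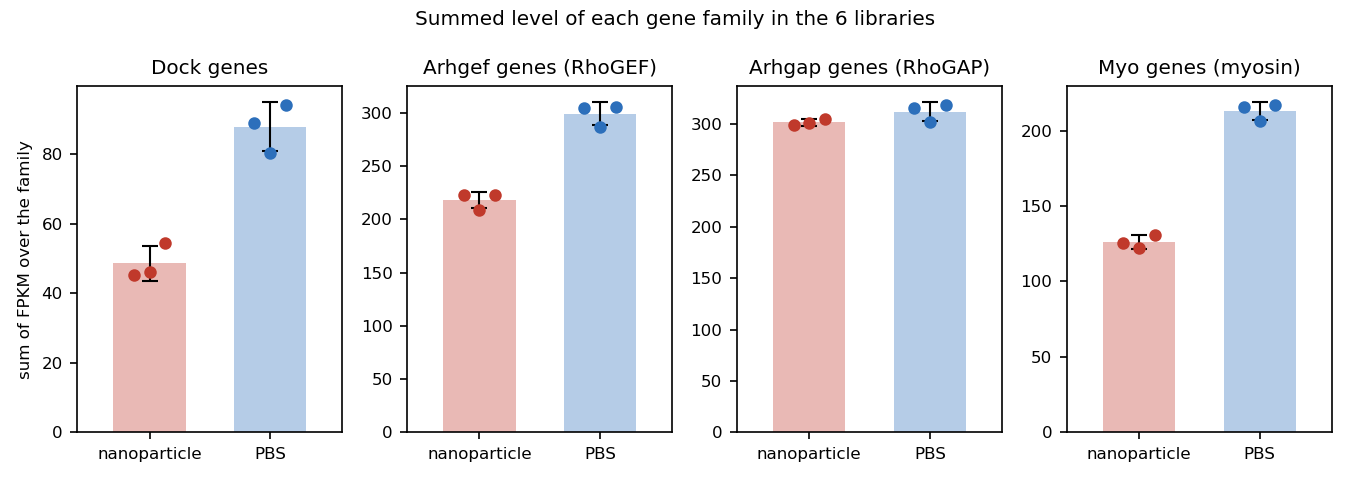
Summed FPKM of each family in each library, with nanoparticle libraries left of PBS libraries, points for libraries, bars for group means and error bars for the SD (n = 3). The Dock, Arhgef and Myo sums are lower in every nanoparticle library, and the Arhgap sums overlap as deposited but not after upper quartile or median-ratio scaling.

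**Figure D2:**
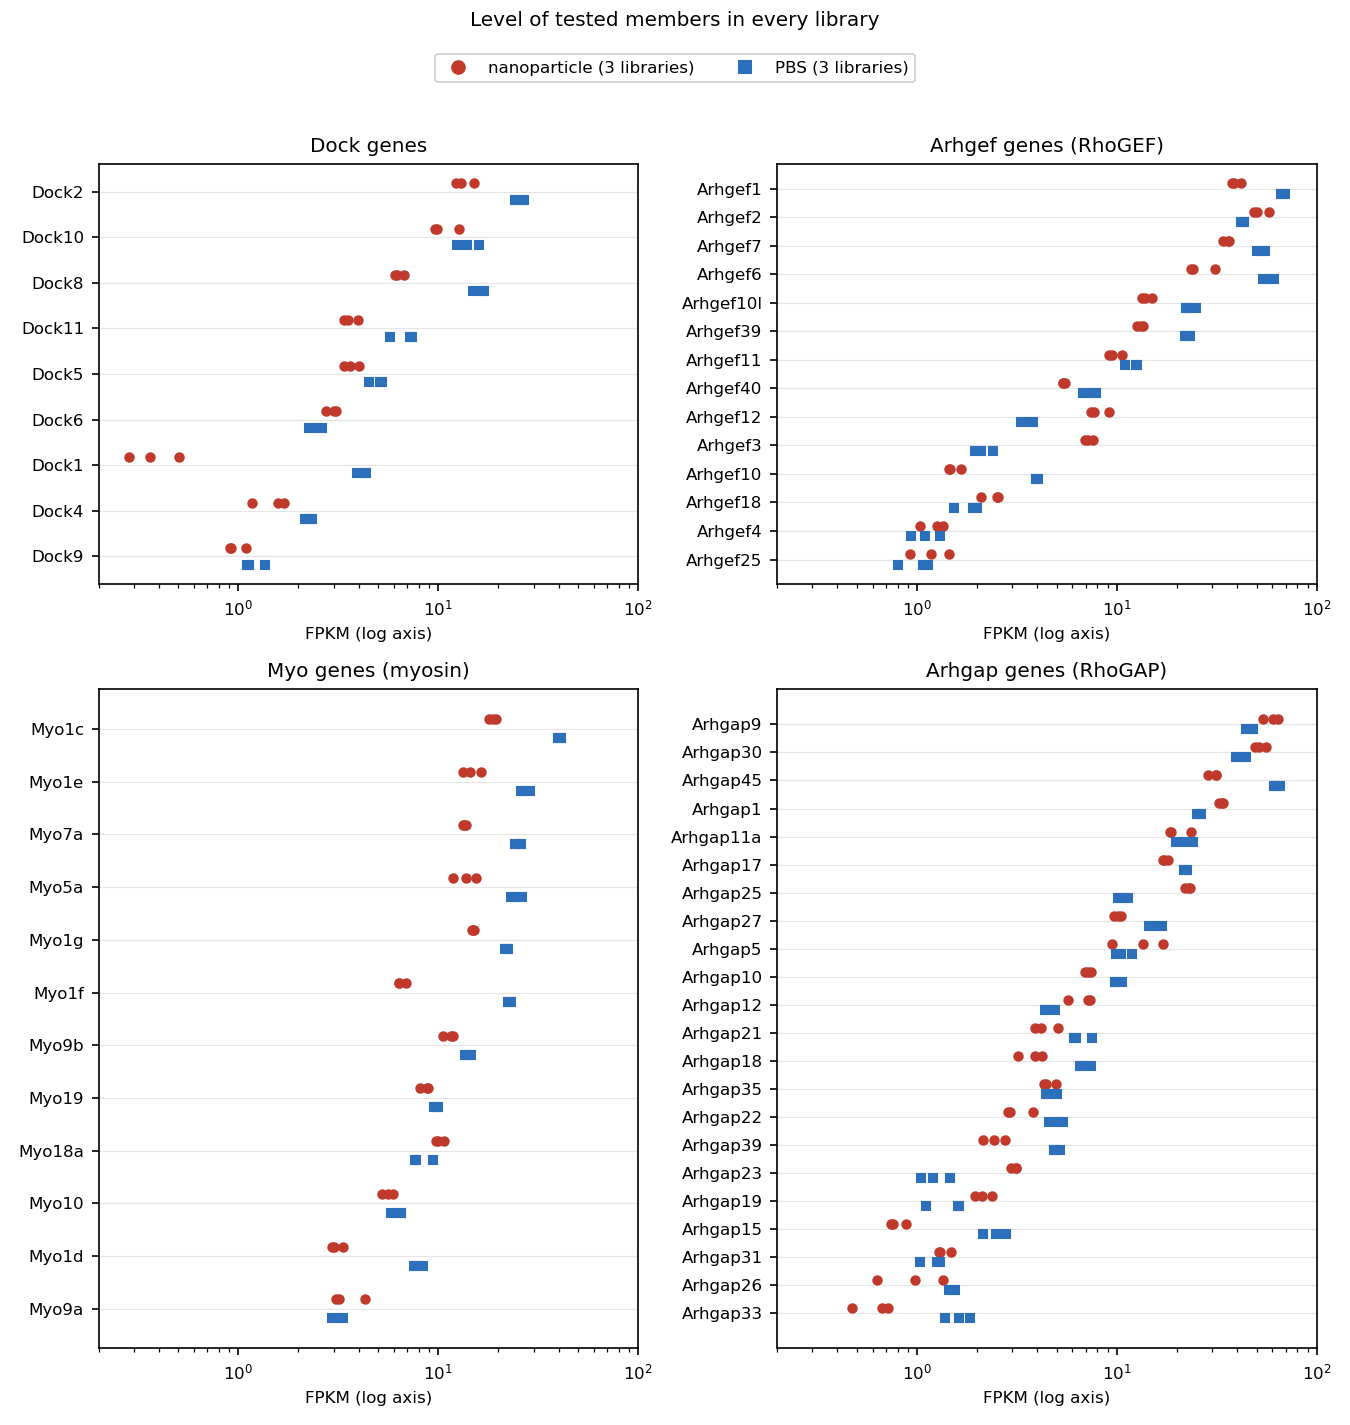
FPKM of tested members in every library on a log axis, by family, with nanoparticle values drawn above PBS values. Dock1, with all nanoparticle values under 1 FPKM and all PBS values near 4 FPKM, has the widest gap, and genes such as Arhgef3, Arhgef12 and Arhgap25 lie on the other side. Dock1 passed the filter through its PBS values.

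Promoters of 5 members are shown, from called genes with a RefSeq window that holds the GENCODE start. Dock1 and Myo1f had the largest falls among these, Arhgap25 the largest rise, and Arhgap45 and Arhgap15 the widest differences among the rest whose window held a motif searched. Dock1 and Arhgap15 passed the filter through their PBS values, so their means had to be lower with nanoparticles. Each sequence is the RefSeq window (GRCm38.p6) from 250 bases before to 50 after the annotated start, written 5′ to 3′ on the gene's strand, and capitals mark an E-box, CACGTG.
Dock1 (chr7:134670437-134670736, plus strand): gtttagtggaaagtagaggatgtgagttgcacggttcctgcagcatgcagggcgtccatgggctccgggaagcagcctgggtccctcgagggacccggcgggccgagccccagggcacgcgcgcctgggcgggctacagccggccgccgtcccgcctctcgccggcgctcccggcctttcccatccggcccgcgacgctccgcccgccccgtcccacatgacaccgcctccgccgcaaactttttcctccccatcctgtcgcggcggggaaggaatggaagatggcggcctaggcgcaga
Myo1f (chr17:33555457-33555756, plus strand): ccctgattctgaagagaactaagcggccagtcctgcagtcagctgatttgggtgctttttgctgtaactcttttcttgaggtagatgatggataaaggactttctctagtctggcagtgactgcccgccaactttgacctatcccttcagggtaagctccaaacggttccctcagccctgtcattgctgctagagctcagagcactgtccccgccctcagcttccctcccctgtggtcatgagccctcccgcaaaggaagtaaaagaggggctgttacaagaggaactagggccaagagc
Arhgap45 (chr10:80016422-80016721, plus strand): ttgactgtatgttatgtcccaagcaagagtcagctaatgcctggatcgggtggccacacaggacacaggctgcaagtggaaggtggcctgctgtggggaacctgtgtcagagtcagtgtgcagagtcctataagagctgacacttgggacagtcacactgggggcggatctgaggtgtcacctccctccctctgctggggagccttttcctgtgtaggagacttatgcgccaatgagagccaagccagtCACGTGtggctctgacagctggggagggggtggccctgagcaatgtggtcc
Arhgap15 (chr2:43748574-43748873, plus strand): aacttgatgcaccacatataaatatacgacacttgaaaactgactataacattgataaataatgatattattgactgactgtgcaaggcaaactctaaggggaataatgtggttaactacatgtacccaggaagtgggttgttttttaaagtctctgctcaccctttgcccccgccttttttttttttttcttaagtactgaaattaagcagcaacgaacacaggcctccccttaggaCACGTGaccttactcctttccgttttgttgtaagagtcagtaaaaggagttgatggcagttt
Arhgap25 (chr6:87533210-87533509, minus strand): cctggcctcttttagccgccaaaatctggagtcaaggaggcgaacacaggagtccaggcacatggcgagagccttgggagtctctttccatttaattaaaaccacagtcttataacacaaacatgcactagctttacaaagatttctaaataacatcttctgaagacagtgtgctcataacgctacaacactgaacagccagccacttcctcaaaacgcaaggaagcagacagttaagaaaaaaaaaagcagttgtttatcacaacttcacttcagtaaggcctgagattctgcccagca
The 5 windows differ in composition, with G and C making up 70.7% of the Dock1 window, 53.0% of Myo1f, 57.7% of Arhgap45, 38.7% of Arhgap15 and 43.7% of Arhgap25. Each window was read on both strands for an E-box (CACGTG), an AP-1 element (TGANTCA), a CRE (TGACGTCA), an ISRE core and the NF-kB consensus. Arhgap45 and Arhgap15, chosen for holding a match, each had 1 E-box, and the other 3 windows held none of the 5 motifs. RefSeq windows were found for 72 of the 96 members, 108 windows in all. An E-box stood in 8.33% of the member windows and 7.15% of all 32851 windows, an AP-1 element in 7.41% and 7.81%, and an NF-kB consensus in 7.41% and 4.51%. A CRE was found in 0.926% of the member windows and 1.79% of all windows, and an ISRE core in 1.85% and 3.44%. These matches are letters in a window and are not sites of binding.

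Within the DOCK-A group, whose members activate Rac together with ELMO adaptors, all 3 genes were lower, as were 34.5% of all genes tested. Dock1 (ENSMUSG00000058325, chr7:134670654-135173639 in GRCm38, plus strand), the Rac GEF known from the uptake of apoptotic cells, had 0.363, 0.284 and 0.504 FPKM in the nanoparticle libraries, against 4.29, 3.91 and 4.37 FPKM in the PBS libraries. Every nanoparticle library was under every PBS library, and the means, 0.384 ± 0.111 FPKM with nanoparticles and 4.19 ± 0.242 FPKM with PBS (SD, n = 3 each), were 10.9-fold apart. The log2 fold change was -1.91 (limma, SE 0.09, adjusted p = 4.7e-08). Dock1 passed the filter through its PBS values, so its mean had to be lower with nanoparticles. Dock2 (ENSMUSG00000020143, chr11:34226815-34783892, minus strand), the Rac GEF of blood cells that is needed for leukocyte migration, was the most abundant Dock gene in both groups. It had 12.3, 13.03 and 15.2 FPKM in the nanoparticle libraries, against 25.8, 24.2 and 26.8 FPKM in the PBS libraries, without overlap, and its log2 fold change was -0.88 (limma, SE 0.08, adjusted p = 5.4e-06). Dock5, a Rac GEF required by osteoclasts for bone resorption, had 3.38, 3.63 and 4.04 FPKM in the nanoparticle libraries, against 5.09, 4.51 and 5.24 FPKM in the PBS libraries. The 3 nanoparticle values again lay below the 3 PBS values, though by a smaller margin, at -0.35 (limma, SE 0.09, adjusted p = 0.0046). Dock1 made up 0.8% of the Dock sum with nanoparticles and 4.8% with PBS.

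Dock8 and Dock6, from the DOCK-C group of exchange factors for Rac and for Cdc42, are described singly, with no count for the group. Dock8 (ENSMUSG00000052085, chr19:24999534-25202432, plus strand), a Cdc42 GEF of leukocytes whose loss in humans causes an immune deficiency, had 6.08, 6.22 and 6.78 FPKM in the nanoparticle libraries, against 16.8, 14.9 and 16.9 FPKM in the PBS libraries. Its values did not overlap, at 2.54-fold lower and a log2 fold change of -1.22 (limma, SE 0.08, adjusted p = 3.0e-07). Dock6 ran the other way with 3.01, 2.76 and 3.07 FPKM in the nanoparticle libraries, against 2.63, 2.25 and 2.41 FPKM in the PBS libraries. That difference was small, at 0.20 (limma, SE 0.08, adjusted p = 0.043), and its adjusted p was 0.05 or more after upper quartile or median-ratio scaling, with a pseudocount of 0.1, with no filter and without any 1 of 4 libraries (PBS 2, PBS 3, nanoparticle 1 or nanoparticle 3).

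The Cdc42 GEFs of the DOCK-D group were lower or did not pass. Dock11 had 3.37, 3.54 and 3.96 FPKM in the nanoparticle libraries, against 7.26, 5.77 and 7.41 FPKM in the PBS libraries, lower in all treated libraries at -0.75 (limma, SE 0.10, adjusted p = 7.2e-05). Dock10 had 9.62, 9.88 and 12.7 FPKM in the nanoparticle libraries, against 13.96, 12.4 and 15.9 FPKM in the PBS libraries, with the highest treated library above the lowest PBS library, at -0.37 (limma, SE 0.12, adjusted p = 0.015). Its adjusted p was 0.054 without PBS library 3, 0.051 without nanoparticle library 1 and 0.051 without nanoparticle library 2. Dock10 made up 21.98% of the Dock sum with nanoparticles and 16.0% with PBS, whereas Dock8 made up 13.1% with nanoparticles and 18.4% with PBS. Dock9 had 0.920, 0.912 and 1.09 FPKM in the nanoparticle libraries, against 1.35, 1.11 and 1.14 FPKM in the PBS libraries and did not pass, with a 95% interval of the log2 fold change from -0.36 to 0.05 (limma adjusted p = 0.14). Its groups did not overlap, and it was called lower after upper quartile scaling, but it passed the filter through its PBS values. Dock4, of the DOCK-B group and a Rac GEF, was lower at -0.40 (limma adjusted p = 0.0045), with 1.48 FPKM with nanoparticles and 2.25 FPKM with PBS on average.

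**Figure D3:**
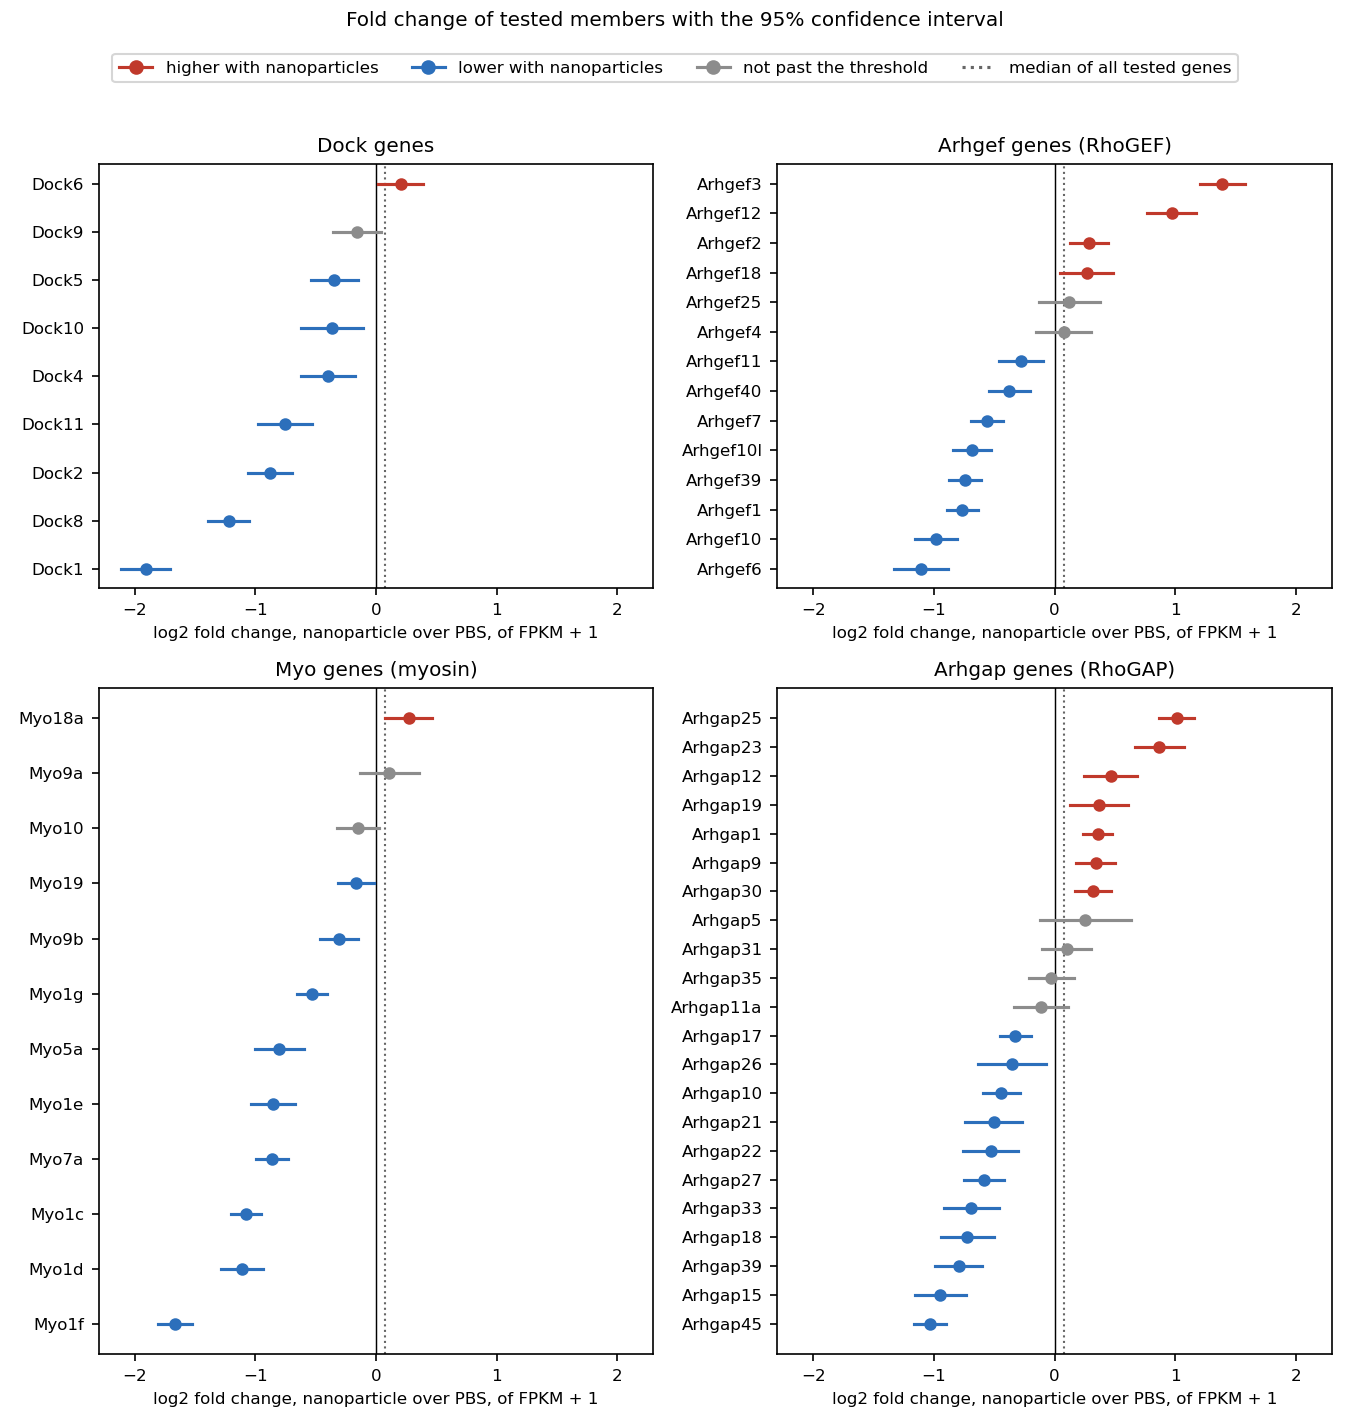
Log2 fold change of tested members, nanoparticle over PBS, with the 95% confidence interval, by family and ordered by size. Red members were higher and blue members lower past the threshold, grey ones did not pass, and the dotted line is the median of all genes tested, 0.08.

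Among the RhoGEF genes, the 2 named PIX and the 2 of the Arhgef10 type were all lower, as were 34.5% of all genes tested. With 2 genes each, these counts are too small to set against that share. Arhgef6 (ENSMUSG00000031133, chrX:57231485-57338729) and Arhgef7 encode the alpha and beta PIX proteins, GEFs for Rac and Cdc42 that bind the PAK kinases. Arhgef6 had 24.2, 23.6 and 30.9 FPKM in the nanoparticle libraries, against 56.96, 53.6 and 61.3 FPKM in the PBS libraries, 2.18-fold lower with no overlap and a log2 fold change of -1.11 (limma, SE 0.10, adjusted p = 4.1e-06). Arhgef7 had 33.9, 35.9 and 36.3 FPKM in the nanoparticle libraries, against 53.3, 50.03 and 54.9 FPKM in the PBS libraries, also without overlap, at -0.56 (limma, SE 0.06, adjusted p = 1.1e-05). With PBS the PIX genes were close to each other, and with nanoparticles every Arhgef7 value was above every Arhgef6 value. Arhgef10 had 1.67, 1.46 and 1.44 FPKM in the nanoparticle libraries, against 3.94, 3.94 and 4.05 FPKM in the PBS libraries, 2.61-fold lower at -0.98 (limma, SE 0.08, adjusted p = 1.7e-06), and its relative Arhgef10l averaged 14.1 ± 0.820 FPKM with nanoparticles and 23.2 ± 1.48 FPKM with PBS (SD, n = 3 each), at -0.69. Arhgef39 averaged 13.2 ± 0.470 FPKM with nanoparticles and 22.7 ± 0.656 FPKM with PBS (SD, n = 3 each), and it was lower at -0.74 (limma adjusted p = 2.0e-06).

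The 3 RhoGEFs with an RGS domain, which link G12 and G13 proteins to RhoA, did not move together. Arhgef1 (ENSMUSG00000040940, chr7:24902912-24926594), the leukocyte member of this group, had 41.7, 37.9 and 38.5 FPKM in the nanoparticle libraries, against 69.3, 65.97 and 67.5 FPKM in the PBS libraries. It was 1.72-fold lower without overlap, with a log2 fold change of -0.77 (limma, SE 0.06, adjusted p = 1.0e-06). Arhgef11 had 9.41, 9.17 and 10.6 FPKM in the nanoparticle libraries, against 12.6, 10.9 and 12.5 FPKM in the PBS libraries, a smaller gap in the same direction, at -0.28 (limma, SE 0.08, adjusted p = 0.011). Arhgef12 (ENSMUSG00000059495, chr9:42963842-43107239), the third gene, had 7.41, 7.73 and 9.12 FPKM in the nanoparticle libraries, against 3.71, 3.33 and 3.82 FPKM in the PBS libraries. All treated values of Arhgef12 were above all PBS values, 2.23-fold at the means, with a log2 fold change of 0.97 (limma, SE 0.09, adjusted p = 5.3e-06). Even so, Arhgef1 stayed the most abundant of the 3 in both groups.

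Arhgef3 (ENSMUSG00000021895, chr14:27114899-27403911), a GEF for RhoA and RhoB, had the highest positive fold change of any tested member. It had 6.91, 7.21 and 7.62 FPKM in the nanoparticle libraries, against 2.39, 2.09 and 1.96 FPKM in the PBS libraries, 3.37-fold higher without overlap, and its log2 fold change was 1.39 (limma, SE 0.08, adjusted p = 2.1e-07). Arhgef2, the microtubule-bound RhoA GEF also called GEF-H1, had 57.8, 48.5 and 50.5 FPKM in the nanoparticle libraries, against 43.5, 41.6 and 42.5 FPKM in the PBS libraries, at 0.29 (limma, SE 0.07, adjusted p = 0.0038). Its treated libraries were all higher, and it held 23.9% of the Arhgef sum with nanoparticles and 14.2% with PBS, so it ranked 1 with nanoparticles and 4 with PBS in its family. The Arhgef2 log2 fold change was 0.17 after upper quartile scaling and kept its call. Arhgef18, a RhoA GEF, passed at 0.27 (limma adjusted p = 0.03) but not after either other scaling, with no filter, or without PBS library 2, nanoparticle library 1 or nanoparticle library 3. Arhgef40 was lower at -0.37 (limma adjusted p = 0.0012), and Arhgef25 did not pass, at 0.12 (limma adjusted p = 0.35). Arhgef4 had 1.26, 1.03 and 1.36 FPKM in the nanoparticle libraries, against 1.30, 1.09 and 0.929 FPKM in the PBS libraries, with overlapping groups and a 95% interval from -0.15 to 0.30 (limma adjusted p = 0.51).

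The RhoGAP genes moved in both directions, and the highest ranks within the family changed. Arhgap45 (ENSMUSG00000035697, chr10:80016653-80031472), a GAP of blood cells that yields the minor histocompatibility antigen HA-1 in humans, had 31.3, 28.6 and 31.2 FPKM in the nanoparticle libraries, against 65.5, 60.9 and 62.7 FPKM in the PBS libraries. It was 2.08-fold lower in non-overlapping groups, with a log2 fold change of -1.03 (limma, SE 0.06, adjusted p = 1.7e-07). Its share of the Arhgap sum was 10.1% with nanoparticles and 20.2% with PBS, so it ranked 4 with nanoparticles and 1 with PBS. Arhgap9, a GAP for Rac and Cdc42 expressed in blood cells, ranked 1 with nanoparticles and 2 with PBS, at 19.7% of the sum with nanoparticles and 14.95% with PBS. Arhgap9 had 64.1, 60.6 and 53.6 FPKM in the nanoparticle libraries, against 48.2, 47.2 and 44.4 FPKM in the PBS libraries, higher in every treated library, at 0.34 (limma, SE 0.07, adjusted p = 0.0016). After upper quartile scaling its log2 fold change was 0.22, and it kept its call. Arhgap30 averaged 52.2 ± 3.30 FPKM with nanoparticles and 41.6 ± 2.38 FPKM with PBS (SD, n = 3 each), and Arhgap1, the Cdc42 GAP, averaged 33.4 ± 0.775 FPKM with nanoparticles and 25.9 ± 0.475 FPKM with PBS (SD, n = 3 each). Both were higher, at 0.32 and 0.36 on the log2 scale, and the Arhgap30 value was 0.20 after upper quartile scaling with its call kept.

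In 3 sets of related RhoGAPs, members went opposite ways. Arhgap25 (ENSMUSG00000030047, chr6:87458545-87533259), a Rac GAP of leukocytes known to limit phagocytosis, had 21.9, 22.99 and 23.4 FPKM in the nanoparticle libraries, against 10.9, 10.1 and 11.4 FPKM in the PBS libraries. It was 2.11-fold higher without overlap, at 1.01 (limma, SE 0.07, adjusted p = 3.9e-07). Its relative Arhgap22, also a Rac GAP, had 3.80, 2.87 and 2.92 FPKM in the nanoparticle libraries, against 5.39, 4.60 and 5.13 FPKM in the PBS libraries and was lower in every treated library, at -0.53 (limma, SE 0.10, adjusted p = 9.1e-04). Arhgap23 had 2.96, 3.13 and 3.15 FPKM in the nanoparticle libraries, against 1.46, 1.05 and 1.21 FPKM in the PBS libraries and was 2.48-fold higher. Its close relative Arhgap21, a Cdc42 GAP of the Golgi, had 4.17, 3.88 and 5.06 FPKM in the nanoparticle libraries, against 6.24, 6.08 and 7.53 FPKM in the PBS libraries. Neither gene's groups overlapped, and the log2 fold changes were 0.87 (limma, SE 0.09, adjusted p = 1.2e-05) for Arhgap23 and -0.51 (limma, SE 0.11, adjusted p = 0.0015) for Arhgap21. Of the Arhgap9 group, Arhgap12 was higher, with 5.68, 7.18 and 7.35 FPKM in the nanoparticle libraries, against 4.38, 4.43 and 4.92 FPKM in the PBS libraries, at 0.47 (limma, SE 0.10, adjusted p = 0.0016). Its relatives Arhgap15 and Arhgap27 were lower. Arhgap15 (ENSMUSG00000049744, chr2:43748824-44395953), a Rac GAP that restrains neutrophil and macrophage responses in mice, had 0.743, 0.882 and 0.758 FPKM in the nanoparticle libraries, against 2.13, 2.79 and 2.48 FPKM in the PBS libraries. The gap was 3.11-fold at the means with no overlap, and the log2 fold change was -0.95 (limma, SE 0.10, adjusted p = 9.1e-06). Arhgap15 passed the filter through its PBS values, so its mean had to be lower with nanoparticles. Arhgap27 had 10.5, 9.65 and 10.1 FPKM in the nanoparticle libraries, against 16.9, 14.4 and 15.5 FPKM in the PBS libraries, again lower in each treated library, at -0.58 (limma, SE 0.07, adjusted p = 5.1e-05).

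**Figure D4:**
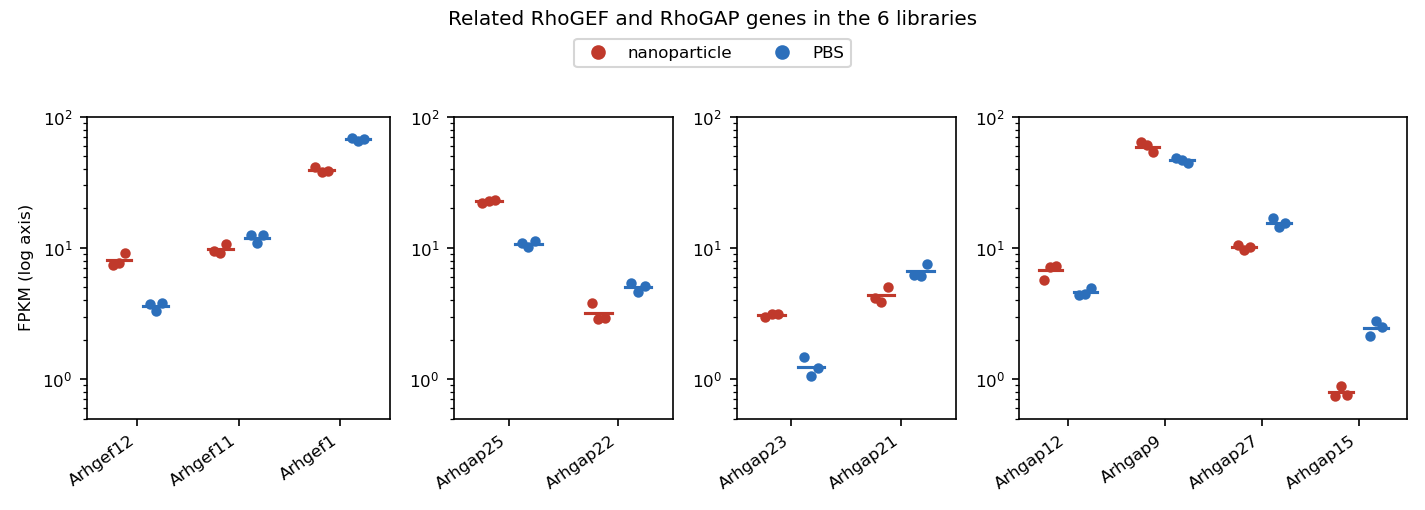
FPKM on a log axis in each library for related RhoGEF and RhoGAP genes, nanoparticle left of PBS, with lines for group means. The panels were chosen for related genes that moved apart, so each holds at least 1 gene higher and at least 1 lower with nanoparticles. Related genes that moved together, such as the PIX genes, are not shown.

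Of the other RhoGAP genes, Arhgap39, a GAP for Rac and Cdc42, had 2.44, 2.76 and 2.15 FPKM in the nanoparticle libraries, against 4.86, 4.86 and 5.21 FPKM in the PBS libraries and was lower at -0.80 (limma, SE 0.09, adjusted p = 1.8e-05). Arhgap17, a GAP for Cdc42 and Rac, had 16.97, 18.1 and 17.1 FPKM in the nanoparticle libraries, against 22.4, 21.7 and 22.03 FPKM in the PBS libraries and was lower at -0.33 (limma, SE 0.06, adjusted p = 5.1e-04). Neither gene's groups overlapped. Arhgap18 was lower at -0.72, Arhgap33 at -0.69 and Arhgap10 at -0.44. Arhgap33 passed the filter through its PBS values, as did Arhgap26. Arhgap26 was called at -0.35 (limma adjusted p = 0.028), with 0.632, 1.36 and 0.974 FPKM in the nanoparticle libraries, against 1.54, 1.54 and 1.45 FPKM in the PBS libraries. Its fold change was -0.22 without nanoparticle library 1 (adjusted p = 0.092), and its adjusted p was 0.067 without PBS library 1, 0.069 without PBS library 2 and 0.06 with no filter. Arhgap19, the remaining higher gene, was called at 0.37 (limma adjusted p = 0.011).

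Arhgap35 and Arhgap5, the pair of p190 RhoGAPs that act on RhoA, did not pass. Arhgap35 had 4.40, 4.32 and 4.96 FPKM in the nanoparticle libraries, against 4.56, 4.40 and 5.05 FPKM in the PBS libraries, and its overlapping groups gave an interval of the log2 fold change from -0.21 to 0.16 (limma adjusted p = 0.77). Arhgap5 had 9.42, 17.1 and 13.5 FPKM in the nanoparticle libraries, against 9.89, 10.4 and 11.9 FPKM in the PBS libraries, a spread within the treated group that was wider than the gap between groups, and its interval ran from -0.12 to 0.63 (limma adjusted p = 0.19). Without nanoparticle library 1, the lowest treated value, Arhgap5 was called higher. Arhgap31 and Arhgap11a did not pass either, at 0.10 and -0.11, and Arhgap11a was called lower without nanoparticle library 3.

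All 5 tested class I myosins were lower, as were 34.5% of all genes tested. Class I myosins are single-headed motors that tie the plasma membrane to actin. Myo1f (ENSMUSG00000024300, chr17:33555707-33607764), a leukocyte myosin with a long tail, had 6.87, 6.36 and 6.36 FPKM in the nanoparticle libraries, against 23.3, 22.4 and 22.8 FPKM in the PBS libraries. Its groups were far apart, 3.499-fold at the means, with a log2 fold change of -1.66 (limma, SE 0.06, adjusted p = 1.0e-08). Myo1e, the other long-tailed class I myosin and a protein of phagocytic cups and podocytes, had 14.4, 13.3 and 16.4 FPKM in the nanoparticle libraries, against 27.3, 25.97 and 28.9 FPKM in the PBS libraries, at -0.86 (limma, SE 0.08, adjusted p = 6.0e-06). Myo1e was above Myo1f in every library of both groups.

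Myo1c (ENSMUSG00000017774, chr11:75650504-75673910) is a short-tailed class I myosin that moves vesicles to the plasma membrane. It was the most abundant Myo gene, with 19.4, 17.99 and 18.7 FPKM in the nanoparticle libraries, against 41.3, 39.7 and 40.9 FPKM in the PBS libraries, 2.17-fold lower at -1.08 (limma, SE 0.06, adjusted p = 8.7e-08). Myo1d had 3.35, 2.95 and 3.01 FPKM in the nanoparticle libraries, against 8.36, 7.66 and 7.57 FPKM in the PBS libraries, 2.53-fold lower at -1.11 (limma, SE 0.08, adjusted p = 6.9e-07). Myo1g, a myosin of blood cell membranes, had 14.7, 14.9 and 15.1 FPKM in the nanoparticle libraries, against 22.5, 21.5 and 21.95 FPKM in the PBS libraries and moved least of the 5, at -0.53 (limma, SE 0.06, adjusted p = 1.4e-05). None of these 3 genes had overlapping groups. The summed class I myosins averaged 58.7 ± 2.21 FPKM with nanoparticles and 121 ± 3.04 FPKM with PBS (SD, n = 3 each).

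Myo5a, Myo7a and Myo9b were also lower. Myo5a, the motor of melanosomes and other vesicles, had 11.9, 13.8 and 15.4 FPKM in the nanoparticle libraries, against 23.1, 24.2 and 26.2 FPKM in the PBS libraries, at -0.80 (limma, SE 0.09, adjusted p = 2.4e-05). Myo7a, a motor best known from hair cells of the inner ear, had 13.8, 13.4 and 13.3 FPKM in the nanoparticle libraries, against 26.01, 24.4 and 25.7 FPKM in the PBS libraries, at -0.86 (limma, SE 0.06, adjusted p = 5.5e-07). Both genes had groups that did not overlap. Myo9b, a motor with a RhoGAP domain of its own, had 11.6, 10.5 and 11.8 FPKM in the nanoparticle libraries, against 14.5, 13.6 and 14.6 FPKM in the PBS libraries, a smaller difference without overlap at -0.31 (limma, SE 0.07, adjusted p = 0.0024).

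Changes were smallest in the remaining myosins. Myo18a had 9.79, 10.6 and 9.95 FPKM in the nanoparticle libraries, against 9.39, 7.65 and 7.71 FPKM in the PBS libraries, the highest positive value among tested Myo genes, at 0.27 (limma, SE 0.09, adjusted p = 0.016). Its call was lost after both other scalings, where the log2 fold change was 0.20 and 0.16, and without PBS library 2, PBS library 3 or nanoparticle library 2. Myo19, a motor of mitochondria, was called at -0.17 (limma adjusted p = 0.046), and the call was lost when any library other than nanoparticle library 3 was left out. Myo10, the motor of filopodia, did not pass at -0.15 (limma adjusted p = 0.11), but it was called lower with the replicate number as a block (adjusted p = 0.050) and after both other scalings. Myo9a, the relative of Myo9b, had 3.08, 3.17 and 4.31 FPKM in the nanoparticle libraries, against 2.95, 3.16 and 3.36 FPKM in the PBS libraries with overlapping groups, and its interval ran from -0.13 to 0.36 (limma adjusted p = 0.37).

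A group of 38 members lay under the 1 FPKM filter, and 2 of them, Arhgap28 and Arhgap33os, were listed at 0 in all libraries. Of the other 36, 20 had every nanoparticle value above every PBS value, 2 had every nanoparticle value below, and 14 overlapped. Among all genes under the filter and above 0, the shares were 33.7% and 3.11%. In PBS libraries 12 of these members were listed at 0 throughout, as the whole table also had fewer rows above 0 with PBS, and the part of that difference in these values was not tested. No value of these members passed 1.34 FPKM. That value belonged to Arhgap24, a Rac GAP that binds filamin, with 0.404, 0.389 and 0.469 FPKM in the nanoparticle libraries, against 1.08, 1.34 and 1.17 FPKM in the PBS libraries. Arhgap24 and Myo7b were the 2 lower ones. Low values with the opposite order were those of Myo1a, the brush-border myosin, at 0.506, 0.312 and 0.373 FPKM in the nanoparticle libraries, against 0.0503, 0.0199 and 0.0823 FPKM in the PBS libraries. Myo6, the motor that walks toward the minus end of actin, had 0.331, 0.324 and 0.397 FPKM in the nanoparticle libraries, against 0.0757, 0.0759 and 0.123 FPKM in the PBS libraries. Arhgef19 had 0.452, 0.274 and 0.180 FPKM in the nanoparticle libraries, against 0.0134, 0 and 0 FPKM in the PBS libraries, and Arhgef33 had 0.408, 0.215 and 0.399 FPKM in the nanoparticle libraries, against 0.0117, 0.0109 and 0 FPKM in the PBS libraries. No test was run on these levels, which are small beside those of the tested members.

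The partners of these families were counted from 7 lists of textbook genes, 162 genes in the table, of which 110 were tested. In all, 39 were higher (35.5%) and 48 lower (43.6%), beside 42.7% and 34.5% of all genes tested as deposited. Of those called, 5 higher genes averaged under 1 FPKM with PBS and 3 lower genes averaged under 1 FPKM with nanoparticles, so each passed the filter through the group where it was high and had to differ. The 13 tested GTPases of the RhoA, Rac and Cdc42 family gave 7 higher and 4 lower, with a median log2 fold change of 0.51. Rnd1, an atypical member of that family that opposes RhoA signalling, had 16.7, 17.7 and 16.7 FPKM in the nanoparticle libraries, against 2.64, 2.27 and 2.69 FPKM in the PBS libraries, at 2.36 (limma, SE 0.08, adjusted p = 3.7e-09). Rhod, another atypical member found on endosomes, had 9.33, 7.44 and 7.52 FPKM in the nanoparticle libraries, against 1.16, 1.36 and 0.866 FPKM in the PBS libraries, at 2.10 (limma, SE 0.11, adjusted p = 1.2e-07). Both were far above PBS without overlap, whereas the central switches moved less. Rac1 averaged 88.3 FPKM with nanoparticles and 88.8 FPKM with PBS and did not pass (limma adjusted p = 0.9), Cdc42 was lower at -0.28 and Rhoa was lower at -0.52.

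Of the 5 tested adaptors that couple DOCK-A proteins to receptors, 3 were higher and 2 lower, beside 42.7% and 34.5% of all genes tested. With 5 genes, these counts are too small to set against those shares. Elmo1 (ENSMUSG00000041112, chr13:20090596-20608353), the partner of Dock2 and Dock1, had 4.85, 5.10 and 5.50 FPKM in the nanoparticle libraries, against 22.9, 22.8 and 23.2 FPKM in the PBS libraries. All treated values lay far below PBS, 4.46-fold at the means, with a log2 fold change of -1.96 (limma, SE 0.07, adjusted p = 4.9e-09). Elmo2 was lower by less, at -0.38. Crk and Crkl, adaptors upstream of Dock1, were higher at 0.34 and 0.64. Bcar1, the Crk-binding scaffold, had 2.23, 2.13 and 2.04 FPKM in the nanoparticle libraries, against 0.422, 0.399 and 0.271 FPKM in the PBS libraries, at 1.20 (limma, SE 0.09, adjusted p = 8.3e-07). Bcar1 passed the filter through its nanoparticle values, so its mean had to be higher with nanoparticles.

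RhoGEF genes with other names gave 6 higher (22.2%) and 14 lower (51.9%) of 27 tested, with a median of -0.19. RhoGAP genes with other names gave 4 higher (25%) and 9 lower (56.25%) of 16, with a median of -0.26. Of all genes tested, 42.7% were higher and 34.5% lower as deposited. Farp2, called higher, passed the filter through its nanoparticle values. Mcf2l, Plekhg5 and Srgap3, called lower, passed it through their PBS values, so the direction of each mean was fixed. Fgd2, a Cdc42 GEF of antigen-presenting cells, had 1.07, 1.01 and 0.928 FPKM in the nanoparticle libraries, against 9.02, 9.23 and 8.41 FPKM in the PBS libraries, at -2.304 (limma, SE 0.08, adjusted p = 4.6e-09), and Plekhg2 had 4.15, 3.59 and 3.81 FPKM in the nanoparticle libraries, against 0.947, 0.960 and 0.892 FPKM in the PBS libraries, at 1.33 (limma, SE 0.08, adjusted p = 2.7e-07). The first fell and the second rose, each without overlap, and Plekhg2 passed the filter through its nanoparticle values. Srgap2, a Rac GAP that bends membranes, had 5.54, 5.99 and 5.78 FPKM in the nanoparticle libraries, against 19.6, 18.2 and 20.2 FPKM in the PBS libraries, at -1.59 (limma, SE 0.07, adjusted p = 2.6e-08). Tagap1 had 30.9, 31.4 and 32.3 FPKM in the nanoparticle libraries, against 8.23, 8.30 and 9.97 FPKM in the PBS libraries, at 1.73 (limma, SE 0.08, adjusted p = 3.2e-08). Thus the 2 RhoGAP genes with the smallest p-values on this list also moved in opposite directions.

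Of the RhoGDI genes, which hold these GTPases inactive in the cytosol, Arhgdia averaged 339.9 ± 29.2 FPKM with nanoparticles and 588 ± 12.7 FPKM with PBS (SD, n = 3 each) and was lower at -0.79. The leukocyte form Arhgdib averaged 664 ± 33.03 FPKM with nanoparticles and 494 ± 17.9 FPKM with PBS (SD, n = 3 each) and was higher at 0.42. The 35 tested effectors split into 14 higher (40.0%) and 15 lower (42.9%), with a median of -0.01. Of all genes tested, 42.7% were higher, near the share of the effectors, and 34.5% were lower. Fmnl1, a formin of leukocytes that builds actin filaments, had 14.8, 14.6 and 14.5 FPKM in the nanoparticle libraries, against 102, 94.2 and 97.5 FPKM in the PBS libraries, at -2.66 (limma, SE 0.05, adjusted p = 2.1e-10). Cdc42ep2, a Cdc42 effector, had 3.06, 3.09 and 2.77 FPKM in the nanoparticle libraries, against 0.177, 0.137 and 0.120 FPKM in the PBS libraries, at 1.79 (limma, SE 0.08, adjusted p = 3.8e-08). Neither gene's groups overlapped, and Cdc42ep2 passed the filter through its nanoparticle values. Of 11 tested genes of conventional myosin II and its regulators, 4 were higher (36.4%) and 3 lower (27.3%), with a median of 0.10. These shares stand beside the same 42.7% and 34.5% of all genes tested. The light chain Myl6 averaged 636 ± 56.4 FPKM with nanoparticles and 342 ± 23.6 FPKM with PBS (SD, n = 3 each) (log2 fold change 0.89), Myl6b averaged 7.66 ± 0.304 FPKM with nanoparticles and 2.13 ± 0.303 FPKM with PBS (SD, n = 3 each) (log2 fold change 1.47), and the heavy chain Myh9 averaged 50.01 ± 3.10 FPKM with nanoparticles and 66.04 ± 5.70 FPKM with PBS (SD, n = 3 each) (log2 fold change -0.39).

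The members are long genes. Their annotated span in GENCODE M21 had a median of 107 kb over the tested members, beside 22.7 kb over the 10207 tested genes with a span. The calls over the whole table differed by span. Of all tested genes over 100 kb, 54.8% were lower and 18.9% higher, with a median log2 fold change of -0.30, and of those at or under 100 kb, 32.3% were lower and 45.4% higher, with a median of 0.12. Over 100 kb, 21 of 31 members (67.7%) were lower and 4 were higher, with a median of -0.44. At or under 100 kb, 15 of 27 members (55.6%) were lower and 9 higher, with a median of -0.31. The rank correlation of span with log2 fold change was -0.23 across the 58 members and -0.18 across all genes, where genes share libraries and are not independent replicates. Dock1, Dock2 and Arhgap15, among the lower genes, span 503, 557 and 647 kb, while Arhgef3 spans 289 kb and was higher, and Arhgap45 spans 14.8 kb and was lower. Dock1 and Arhgap15 passed the filter through their PBS values, so their means had to be lower with nanoparticles. The same holds for Arhgap26, also counted lower over 100 kb, and for Arhgap33, counted lower at or under 100 kb. The part of gene span in these differences was not tested.

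**Figure D5:**
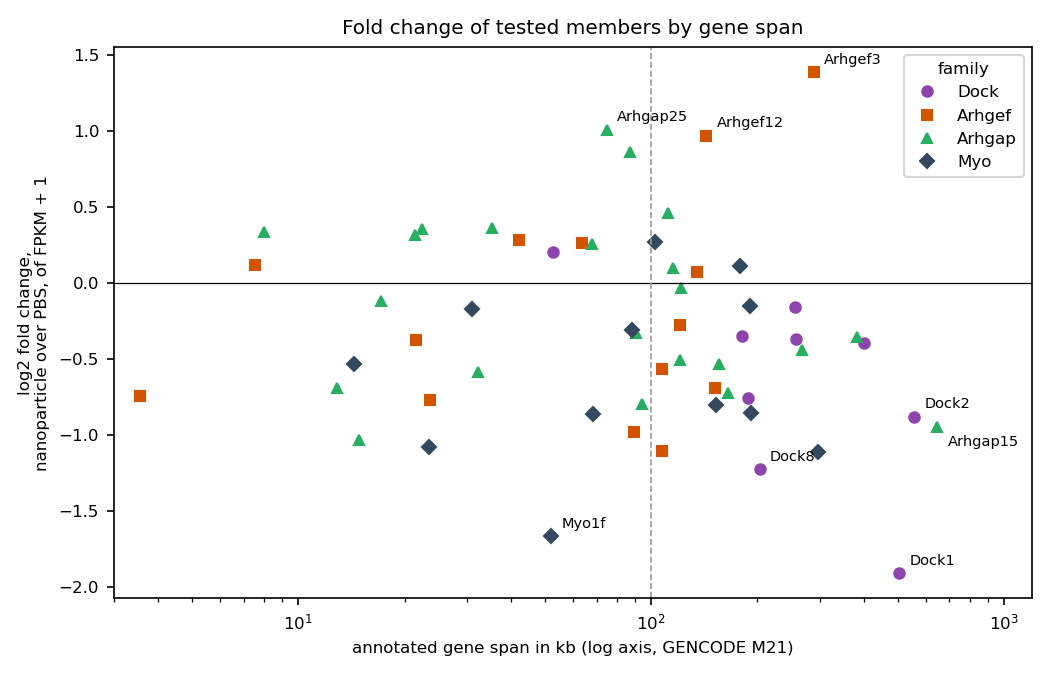
Log2 fold change of tested members, nanoparticle over PBS, against the annotated span of the gene in kb on a log axis, with colour and shape for the family and a dashed line at 100 kb. Dock1, Dock2 and Arhgap15 lie at long spans below 0, and Arhgef3, Arhgef12 and Arhgap25 lie above 0. Dock1 and Arhgap15 passed the filter through their PBS values, so their means had to be lower with nanoparticles.

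Some member exons overlap other expressed genes, and no source used here says if the counting was stranded. On the opposite strand, Myo19 shares exon sequence with Znhit3 (30.3 FPKM over the 6 libraries), Myo9b with Haus8 (30.6 FPKM), Arhgap17 with Lcmt1 (16.9 FPKM), Arhgef40 with Zfp219 (8.86 FPKM) and Arhgef4 with Fam168b (37.2 FPKM). The shared part is 3.89% of the exon length of Myo19, 1.55% of Myo9b, 1.35% of Arhgap17, 1.69% of Arhgef40 and 0.923% of Arhgef4. Levels of these 5 genes are uncertain for that reason, and Arhgef4, at about 1 FPKM, is the lowest of them. Other tested members overlap opposite-strand genes that have no row in the deposited table, so the level of those is unknown. Arhgap22 shares 36.9% of its exon length with Gm15512, and Arhgap10 10.5% with 0610038B21Rik. Arhgap27 shares 16.45% with Arhgap27os2 and 6.61% with Arhgap27os1. Levels of such members are also uncertain. Among members under the filter, Myo1h shares 25.8% of its exon length with Kctd10 on the opposite strand (35.2 FPKM), Arhgap6 11.01% with Hccs on the opposite strand (23.8 FPKM) and Arhgap4 5.92% with Naa10 on the same strand (56.6 FPKM). Their low values are uncertain too, and Myo1h is one of the 20 counted with all nanoparticle values above all PBS values.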

How the data were processed

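RNA was extracted with TRIzol and made into mRNA libraries by a BGI protocol, per the labels' protocols. The submitters' processing notes name STAR, featureCounts, GRCm38 and mm10, with no versions. The deposited table has 1 column per library. Its unit is not in the header, and its values were read as the authors' FPKM from their range and column sums. No source used here gives library depth, and whole fragments could not be recovered (at best 44.0% of values fell within 0.05 of a whole multiple), so no count test was run. The best-fitting depths were 3.68e+07 to 5.34e+07 fragments for nanoparticle libraries and 1.78e+07 to 2.21e+07 for PBS libraries. These are rough estimates that were not checked, and their part in the low values was not tested. The column of PBS library 1 carries the extra letter C after its number. No value column was left unused. Of 22614 rows, 509 without a gene name, holding 0.427% to 0.497% of the FPKM of a library, were left out. Ensembl IDs of 21995 rows were found in GENCODE M21 (GRCm38), which gave positions and spans.

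log2(deposited FPKM + 1) was fitted for the 10229 genes averaging 1 FPKM or more, by limma 3.58.1 (R 4.3.3) with an intensity trend and treatment as the only term, two-sided, with Benjamini-Hochberg adjustment over all genes tested. A family or list was described by counts and medians, with no test of the list. Genes were named by rule: per family the 3 farthest from 0 in each direction among called members without overlap, the most abundant and the one with the largest p, a set of 18, the 5 highest members under the filter, and 2 genes per list with the smallest p. One member is not reported here by name and is left out of the plots of single members. Other genes were named after their values were seen. The members and lists were chosen with earlier results of these data known. Libraries with the same replicate number deviated together (correlations of 0.130, 0.115 and 0.354, though nanoparticle library 1 and PBS library 2 reached 0.134), so a fit with the replicate number as a block was compared. Other alternatives were another pseudocount, filter or scaling, limma without a trend, and leaving out each library.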

Additional observations from a re-analysis of the deposited data

How the results depend on the processing

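No called member changed direction in any of the 14 alternatives, and 43 of the 49 calls held in every alternative in which the gene was tested. The exceptions were Dock6, Dock10, Arhgef18, Arhgap26, Myo18a and Myo19. The replicate block gained Myo10 and changed no other member call, giving 13 higher and 37 lower members, with 4609 and 3742 of all genes. Leaving out 1 library gave 10 to 13 higher and 33 to 37 lower members, and 4110 to 4276 higher and 3257 to 3605 lower genes overall. Higher members numbered 8 with a filter at a mean of 5 FPKM and 26 with no filter, where low genes listed near 0 with PBS entered. By family, the 5 FPKM filter gave 0 higher and 5 lower Dock genes, 2 higher Arhgef genes and 6 lower Arhgap genes, since fewer genes were tested. No filter gave 7 higher Arhgef genes, 10 higher Myo genes and 59 higher genes over the 7 lists, and the alternatives of the list counts were chosen after seeing the data. The single higher Dock gene was lost (0) after both other scalings and with a pseudocount of 0.1, and the single higher Myo gene (0) after both scalings. Leaving out 1 library gave 0 to 1 higher and 7 to 8 lower Dock genes, 3 to 4 and 8 to 8 Arhgef genes, 7 to 8 and 10 to 12 Arhgap genes, and 0 to 1 and 8 to 9 Myo genes, and over the lists 34 to 39 and 43 to 48. The higher Dock gene was lost without PBS library 2, PBS library 3, nanoparticle library 1 or nanoparticle library 3, and the higher Myo gene without PBS library 2, PBS library 3 or nanoparticle library 2.

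Upper quartile scaling moved the median of all genes by -0.11 on the log2 scale, to -0.03, and the median of members to -0.48. It gave 10 higher and 38 lower members, and median-ratio scaling gave 10 and 37. The log2 ratio of the summed family levels was -0.45 for Arhgef, -0.05 for Arhgap and -0.75 for Myo as deposited. It was -0.57, -0.17 and -0.87 after upper quartile scaling, and -0.53, -0.13 and -0.83 after median-ratio scaling. Without 1 library it ran from -0.94 to -0.80 for Dock, -0.48 to -0.43 for Arhgef, -0.07 to -0.03 for Arhgap and -0.78 to -0.73 for Myo. Without a known depth, precision rests on 3 libraries a group alone, and an exact permutation test of single values could not go below 0.1.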
